A study of Mus musculus with 36 samples.

Results

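Imprinted genes are genes of which usually 1 parental copy is transcribed, and 10 of them were followed through the liver RNA of mice with a YAP transgene, with and without Tet1 and with decitabine. The 10 genes, H19, Igf2, Igf2r, Mest, Peg3, Plagl1, Cdkn1c, Grb10, Meg3 and Dlk1, were taken by symbol from a table of 18591 genes, where they are spelled in capitals (H19, IGF2, IGF2R, MEST, PEG3, PLAGL1, CDKN1C, GRB10, MEG3 and DLK1), and all 10 were present. Liver RNA was sequenced in 12 libraries, in 4 groups of 3. All mice were C57BL/6 and all received doxycycline at 50 mg/L in drinking water, given either to mice 1 month old or to nursing mothers. The control group was of wild type genotype. The YAP Tg group carried the transgene for YAP, a co-activator of transcription held in check by the Hippo pathway. The Tet1 -/- YAP Tg group (Tet1 KO YAP Tg in the plots) lacked Tet1 by genotype and carried the same transgene, and the decitabine group was Tet1 -/- YAP Tg mice of 1 month that were kept on doxycycline and injected intraperitoneally with decitabine at 0.5 mg/kg each day for 10 days. TET1 is an enzyme that oxidises 5-methylcytosine. Decitabine, an analogue of cytidine, binds DNA methyltransferases covalently and so depletes them. The promoter and cell type that drive the transgene, the species of the YAP sequence and the deleted part of Tet1 are not given in the sources used here, and no group had the Tet1 deletion without the transgene or decitabine without the deletion.

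Imprinting rests on methylation of control regions that is set in the egg or the sperm and kept through cell divisions, so that the silent copy is silenced by its parent of origin. Several imprinted genes regulate fetal growth, among them the growth factor gene Igf2 and its clearance receptor Igf2r, and many of them are abundant in the fetal liver and fall to low levels after birth. Total RNA reads do not tell the parental copies apart, so the values below are summed levels of both copies and show neither loss nor gain of imprinting.

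The libraries held between 19082417 and 31719344 reads in genes. Levels are given as normalised reads, which are RPM values scaled by TMM factors to be comparable between libraries; 1 read was worth 0.0271 (decitabine 2) to 0.0594 (control 3) normalised reads, so low levels are coarser in some libraries. The submitters deposited the decitabine libraries in another unit, TPM, and these were brought to the same scale through recovered reads, so decitabine and processing cannot be told apart. Gapdh, a glycolytic enzyme named after its values were seen, had group means of 508, 347 and 524 normalised reads without decitabine and 1.5 with it. Tet1 itself was at 0.935, 0.756 and 0.356 normalised reads in control livers, 9.90, 8.59 and 8.97 in YAP Tg, 1.25, 0.954 and 0.586 in Tet1 -/- YAP Tg, and 1.61, 1.73 and 3.53 with decitabine. Its reads in Tet1 -/- YAP Tg were not called different from control (limma, adjusted p = 0.32), and with decitabine they were called higher than in control (log2 1.21, adjusted p = 0.00139). Tet1 reads were called lower in Tet1 -/- YAP Tg than in YAP Tg by limma, at group means of 0.931 and 9.15 normalised reads. Since Tet1 reads remained, they do not by themselves show the deletion, and the genotype is given as labelled. Libraries of a group could be nearly identical. After sampling noise of reads was taken out, the coefficient of variation of a pair of libraries was 0.00996 to 0.0443 in YAP Tg, 0.0247 to 0.0326 in Tet1 -/- YAP Tg, 0.0242 between controls 1 and 3, 0.131 and 0.14 between these and control 2, and 0.185 to 0.314 with decitabine. The labels do not state that replicates come from different animals, so p-values measure the spread between these libraries, which may be technical. Of 8 hepatocyte markers, none was at 0, and 5 were called lower and 0 higher in YAP Tg than in control by limma. In Tet1 -/- YAP Tg against YAP Tg, 6 were higher and 2 lower. Over all genes tested, 70.5% and 67.4% were called in these 2 comparisons. Fabp1, a fatty acid carrier, had group means of 7610, 276, 3210 and 195 normalised reads in control, YAP Tg, Tet1 -/- YAP Tg and decitabine. The sum of the 8 was mostly albumin (Alb, group means of 99300, 107000, 41300 and 103000) and ranged from 60500 to 140000 over all libraries.

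In YAP Tg livers most of these imprinted genes were higher than in control livers, and in Tet1 -/- YAP Tg livers they were lower than in YAP Tg. H19 moved most, from a mean of 2.42 normalised reads in controls to 166 in YAP Tg and 0.598 in Tet1 -/- YAP Tg, and Peg3 and Cdkn1c moved next most. Differences were tested with limma on log2(normalised reads + 0.5), a scale that understates changes of genes with few reads, and a gene was called changed at a Benjamini-Hochberg adjusted p below 0.05 over all genes tested. Of the 10 genes, 9 passed the filter of at least 0.5 normalised reads in at least 3 libraries, and Dlk1 did not. Igf2 passed only through its YAP Tg and single other values, so a difference is built into its presence among the genes tested.

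In YAP Tg against control, 6 of the 9 tested genes were called higher and 1 lower, where 70.5% of all 13730 genes tested were called (36.1% higher and 34.5% lower). In Tet1 -/- YAP Tg against YAP Tg, 1 was called higher and 6 lower, where 67.4% of all genes were called (33.4% higher and 34.0% lower). In Tet1 -/- YAP Tg against control, 1 was called higher and 2 lower, where 39.0% of all genes were called (20.2% higher and 18.8% lower). In decitabine-treated against untreated Tet1 -/- YAP Tg, 5 were called higher and 1 lower, where 60.8% of 13942 genes tested were called (33.0% higher and 27.8% lower), and in decitabine-treated Tet1 -/- YAP Tg against control the counts were again 5 and 1, where 67.3% were called (36.7% higher and 30.6% lower). The shares of the 9 genes called, 77.8%, 77.8%, 33.3%, 66.7% and 66.7%, are thus near the background of each comparison. Their median log2 fold changes were 0.62, -0.64, -0.16, 0.53 and 0.74, beside medians over all genes tested of 0.01, 0.00, 0.02, 0.07 and 0.08. The first 2 of these comparisons share the YAP Tg libraries, and the comparisons with decitabine share the Tet1 -/- YAP Tg or the control libraries with the others, so their signs are not independent.

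**Figure D1:**
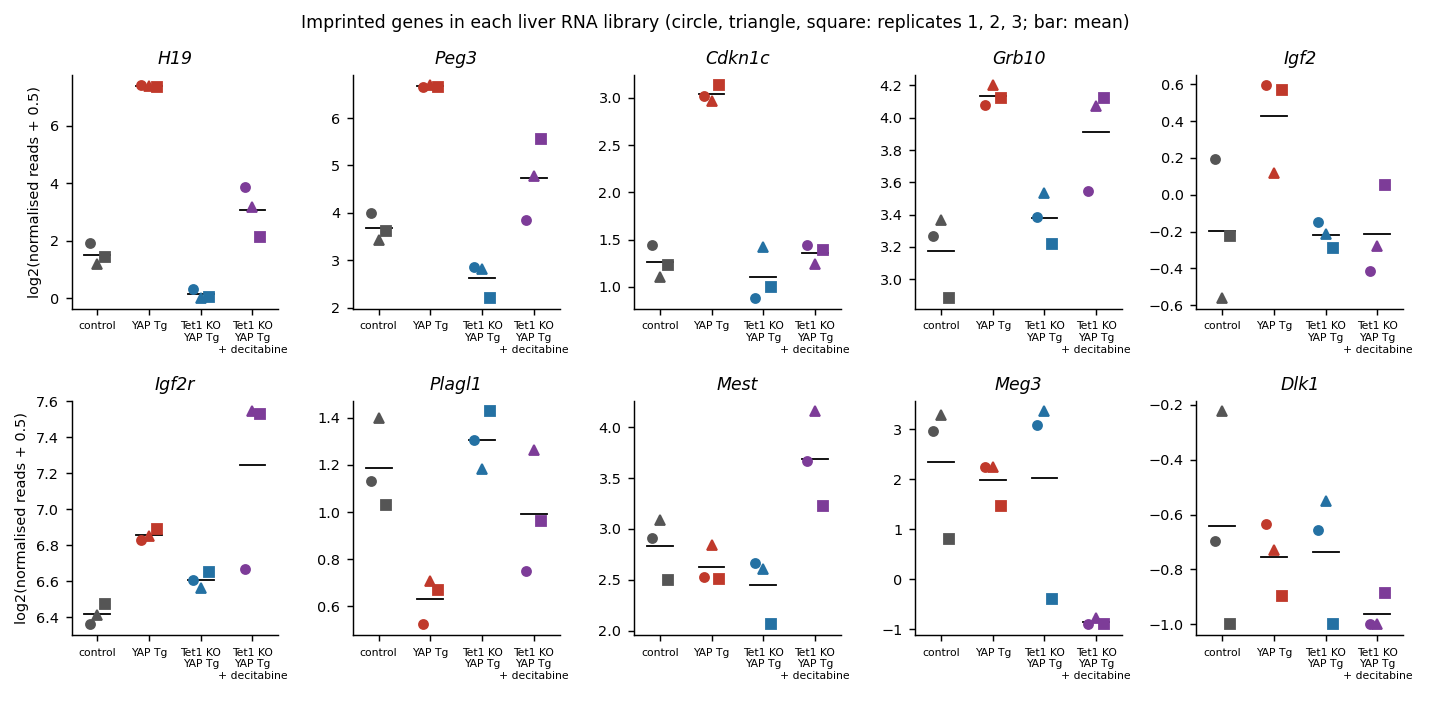
Level of each of the 10 imprinted genes as log2(normalised reads + 0.5) in each of the 12 libraries, with circles, triangles and squares for replicates 1, 2 and 3 and a bar for the group mean; each panel has its own vertical range. The 3 YAP Tg libraries stand above all others for H19, Peg3 and Cdkn1c, and replicate 3 is the lowest of its group for Meg3 in control, YAP Tg and Tet1 -/- YAP Tg.

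The plot of levels by library shows all 4 groups apart for H19, and YAP Tg apart from the other 3 for Peg3 and Cdkn1c. For Mest the decitabine libraries lie above all others and for Meg3 below all others, with the remaining groups overlapping. When libraries of a group that differed by less than a coefficient of variation of 0.05 were added together, which leaves 1 library each for YAP Tg and Tet1 -/- YAP Tg, the counts of called genes fell to 3, 3, 0, 3 and 3 in the order given above. The genes called then in both comparisons with YAP Tg were H19, Peg3 and Cdkn1c.

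**Figure D2:**
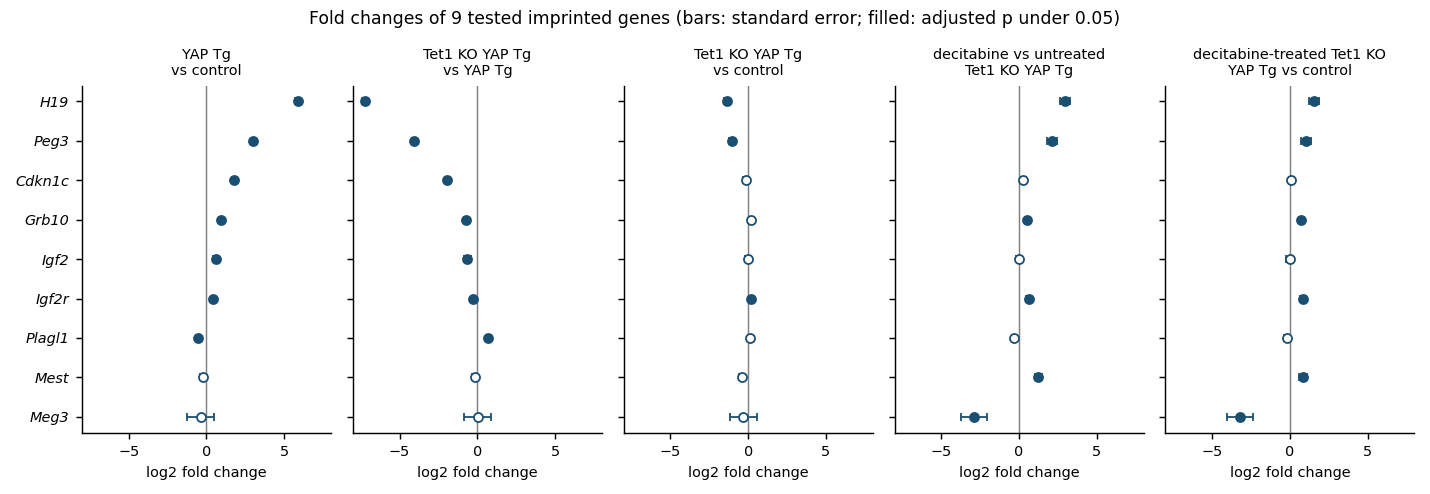
Log2 fold change (horizontal axis) of the 9 tested imprinted genes in the 5 comparisons, with bars for the standard error and filled circles for an adjusted p under 0.05. H19 goes from 5.87 in YAP Tg against control to -7.25 in Tet1 -/- YAP Tg against YAP Tg, and Plagl1 has the opposite signs, -0.55 and 0.67.

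H19 is a maternally expressed long noncoding RNA next to Igf2, abundant in fetal liver, and the host of a microRNA. It lies on chromosome 7, 142575532 to 142578146 on the minus strand (mm10, as for all gene positions here, from the deposited table). Its microRNA, miR-675, is cut from H19 RNA, and its mature arms are shown because the table has a row for this precursor within H19, with the seed (bases 2 to 8) in capitals, from RefSeq (GRCm38.p6).
mmu-miR-675-5p: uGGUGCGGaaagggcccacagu
mmu-miR-675-3p: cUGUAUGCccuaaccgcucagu
The seeds of the arms differ, GGUGCGG and UGUAUGC. H19 was at 3.27, 1.78 and 2.20 normalised reads in control livers, against 170, 168 and 161 in YAP Tg. It was at 0.760, 0.500 and 0.533 in Tet1 -/- YAP Tg and at 14.2, 8.53 and 3.90 with decitabine. No 2 groups overlapped: YAP Tg was high in all 3 libraries, Tet1 -/- YAP Tg lay below the controls, and the decitabine libraries lay between the controls and YAP Tg. The level in YAP Tg (166 ± 4.53, SD, n = 3, as for all such values here) was 68.8 times that in controls (2.42 ± 0.771), with a log2 fold change of 5.87 (SE 0.161, limma adjusted p = 2.4e-11). In Tet1 -/- YAP Tg (0.598 ± 0.142, 38 reads over the group) H19 was lower than in YAP Tg by a log2 of -7.25 (limma adjusted p = 5.01e-12) and lower than in controls by a log2 of -1.39 (adjusted p = 5.41e-05). With decitabine (8.89 ± 5.18) it was higher than in untreated Tet1 -/- YAP Tg (log2 2.94, SE 0.329, limma adjusted p = 5.48e-06) and than in controls (log2 1.55, adjusted p = 0.00103). The highest decitabine library, 14.2, was still below the lowest YAP Tg library, 161. In bulk tissue, fewer cells of a type and less RNA per cell cannot be told apart, for H19 and for the genes that follow.

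The row of the Mir675 precursor, whose reads can also come from H19 exons and which passed the filter without decitabine only through YAP Tg, held 441, 457 and 409 reads in YAP Tg, 4, 6 and 6 in control livers, 4, 1 and 1 in Tet1 -/- YAP Tg, and 23, 12 and 3 with decitabine. Its groups without decitabine were thus ordered as those of H19, and the values do not measure the mature microRNA. The decitabine reads of this row are the smallest whole numbers that fit the deposited TPM. They are too small by a whole factor, since the gene length recovered with them is shorter than the stretch that holds both mature arms. The 5 genes whose log2 levels followed H19 most closely over the 9 libraries without decitabine were B4galt6 (r = 0.999), Plekhm2, Samd4, Cxcr4 and Eid1 (each r = 0.997), among 13729 genes. These correlations describe 9 libraries in 3 groups and mostly repeat the group means. Cxcr4, a chemokine receptor, was at 1.39, 6.16 and 0.965 normalised reads in control, YAP Tg and Tet1 -/- YAP Tg, and at 5.17 ± 2.42 with decitabine.

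Igf2, the paternally expressed fetal growth factor that shares its control region with H19, was near the limit of detection throughout (chromosome 7, 142650768 to 142661035, minus strand). It was at 0.643, 0.178 and 0.356 normalised reads in control livers, 1.01, 0.584 and 0.984 in YAP Tg, 0.402, 0.363 and 0.320 in Tet1 -/- YAP Tg, and 0.250, 0.325 and 0.539 with decitabine. Control and YAP Tg libraries overlapped, and YAP Tg and Tet1 -/- YAP Tg did not. The groups held 21, 72, 23 and 32 reads in all. Igf2 was called higher in YAP Tg than in control (log2 0.62, SE 0.212, limma adjusted p = 0.0198) and lower in Tet1 -/- YAP Tg than in YAP Tg (log2 -0.64, adjusted p = 0.0181). The first call was lost without control 2 (adjusted p = 0.0765) and both were lost without YAP Tg 1 (0.0917 and 0.0861) or YAP Tg 3 (0.0864 and 0.0814). With decitabine the log2 difference from untreated Tet1 -/- YAP Tg was 0.00 (SE 0.213, adjusted p = 0.992). Per kilobase of gene length, H19 stood at 63.6 and Igf2 at 0.203 normalised reads in YAP Tg, and at 0.924 and 0.0926 in controls.

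Igf2r is the maternally expressed receptor that takes up IGF2 for degradation and sorts lysosomal enzymes (chromosome 17, 12682406 to 12769706, minus strand). It was the most abundant of the 10 genes in controls per length, at 9.5 normalised reads per kilobase. Its levels were 81.6, 84.5 and 88.4 normalised reads in control livers, 113, 115 and 118 in YAP Tg, 97.0, 94.0 and 99.9 in Tet1 -/- YAP Tg, and 101, 186 and 184 with decitabine. Controls were the lowest group and no 2 groups without decitabine overlapped, while decitabine 1 lay apart from the other 2 decitabine libraries and below YAP Tg. Igf2r was called higher in YAP Tg than in control (log2 0.44, SE 0.0506, limma adjusted p = 7.88e-06) and lower in Tet1 -/- YAP Tg than in YAP Tg (log2 -0.25, adjusted p = 0.000866). It was also called higher in Tet1 -/- YAP Tg than in control (log2 0.19, adjusted p = 0.0111), a call that was lost without Tet1 -/- YAP Tg 3 (adjusted p = 0.0514). With decitabine it was higher than in untreated Tet1 -/- YAP Tg (log2 0.64, SE 0.178, adjusted p = 0.00732) and than in control (log2 0.83, adjusted p = 0.00109).

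Airn, the paternal antisense RNA that starts inside Igf2r and overlaps it, went from 0.610 ± 0.094 normalised reads in controls to 2.81 ± 0.347 in YAP Tg (log2 1.57, limma adjusted p = 1.03e-06), 0.697 ± 0.0732 in Tet1 -/- YAP Tg and 3.53 ± 0.391 with decitabine (log2 1.75 against untreated, adjusted p = 3.18e-07). The strand setting of the counting is not given in the sources used here, so reads of Igf2r introns and of Airn cannot be told apart. The neighbour Slc22a3, a transporter of organic cations that is maternally expressed in the placenta, was at 2.21 ± 0.345, 0.683 ± 0.245, 6.05 ± 0.326 and 1.34 ± 0.658 in the 4 groups, and all of its differences were called.

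Among the transcription factors, Peg3 and Plagl1 moved in opposite directions. Peg3 is a paternally expressed zinc finger protein. Plagl1 (also Zac1) is a paternally expressed zinc finger factor that activates Igf2, H19 and Cdkn1c in mouse tissues. The promoters (250 bases before to 50 after the start, RefSeq, GRCm38.p6) of these and of Grb10 are shown because they stand for the 3 patterns of strong rise, fall and moderate rise in YAP Tg. RefSeq promoters were at hand for 8 of the 10 genes, with 15 starts, and not for H19 and Cdkn1c. Capitals mark GGAATG (its reverse complement is CATTCC), a core motif of TEAD factors, which YAP binds, and TGCCGC, which reads GCGGCA on the other strand and is the core of the motif bound by the imprint keeper ZFP57 when methylated; the 2 do not overlap here.
Peg3, chr7:6730370-6730669, minus strand: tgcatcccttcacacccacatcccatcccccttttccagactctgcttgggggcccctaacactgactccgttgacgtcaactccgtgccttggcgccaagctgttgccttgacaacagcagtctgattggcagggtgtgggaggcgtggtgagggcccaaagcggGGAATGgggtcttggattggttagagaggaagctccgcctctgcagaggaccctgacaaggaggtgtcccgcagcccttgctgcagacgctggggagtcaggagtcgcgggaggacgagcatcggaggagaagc
Plagl1, chr10:13090582-13090881, plus strand: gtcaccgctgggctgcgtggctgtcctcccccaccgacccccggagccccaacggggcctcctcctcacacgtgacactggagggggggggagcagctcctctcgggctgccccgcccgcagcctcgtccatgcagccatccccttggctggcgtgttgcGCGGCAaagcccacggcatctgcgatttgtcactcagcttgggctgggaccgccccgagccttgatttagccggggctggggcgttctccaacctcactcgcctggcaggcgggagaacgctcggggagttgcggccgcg
Grb10, chr11:12037371-12037670, minus strand: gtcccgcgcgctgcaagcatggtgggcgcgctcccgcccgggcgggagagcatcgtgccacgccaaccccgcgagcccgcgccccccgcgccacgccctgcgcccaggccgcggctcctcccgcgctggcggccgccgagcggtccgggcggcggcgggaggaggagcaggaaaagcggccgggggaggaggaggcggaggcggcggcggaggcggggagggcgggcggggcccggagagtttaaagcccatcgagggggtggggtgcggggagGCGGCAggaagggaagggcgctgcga
The Peg3 window holds 1 TEAD core, 84 bases before the start, the Plagl1 window 1 ZFP57 core 90 bases before it and the Grb10 window 1 ZFP57 core 24 bases after it, each position being that of the first base. Over all 32851 promoter windows, 14.7% held the TEAD core and 11.6% the ZFP57 core on either strand. Of the 8 genes, 2 (Peg3 and Igf2) had a TEAD core and 5 (Grb10, Igf2, Meg3, Mest and Plagl1) a ZFP57 core at 1 or more starts. The windows held 13, 26 and 45 CpG sites, where the median window held 7; 62.1%, 83.1% and 98.1% of windows held fewer. These are matches of letters in windows and say nothing of binding or of methylation in these livers.

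Peg3 (chromosome 7, 6705960 to 6730419, minus strand) was at 15.4, 10.3 and 11.8 normalised reads in control livers, against 101, 103 and 101 in YAP Tg. It was at 6.71, 6.59 and 4.11 in Tet1 -/- YAP Tg and at 14.0, 26.9 and 46.5 with decitabine. YAP Tg was again the highest group and Tet1 -/- YAP Tg the lowest, and among the 4 groups overlap was seen between controls and decitabine. The YAP Tg level (102 ± 0.957) was 8.14 times the control level (12.5 ± 2.65), with a log2 fold change of 3.00 (SE 0.17, limma adjusted p = 1.49e-08). In Tet1 -/- YAP Tg (5.80 ± 1.47) Peg3 was lower than in YAP Tg (log2 -4.05, limma adjusted p = 1.25e-09) and than in controls (log2 -1.06, adjusted p = 0.000559). With decitabine (29.1 ± 16.3) it was higher than in untreated Tet1 -/- YAP Tg (log2 2.10, SE 0.324, adjusted p = 9.45e-05) and than in controls (log2 1.05, adjusted p = 0.0118). The last call was lost without decitabine 3 (log2 0.64, adjusted p = 0.0542). The decitabine library with the most Peg3 was the one with the least H19, and that with the least Peg3 had the most H19.

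Of the other genes at the Peg3 locus, Usp29 and Zim1 were below the filter, at group means of at most 0.334 and 0.172 normalised reads.

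Plagl1 (chromosome 10, 13090788 to 13131695, plus strand) was at 1.69, 2.14 and 1.54 normalised reads in control livers, against 0.936, 1.13 and 1.09 in YAP Tg. It was at 1.97, 1.77 and 2.19 in Tet1 -/- YAP Tg and at 1.18, 1.90 and 1.45 with decitabine. All 3 YAP Tg libraries lay below every other library, by a small margin to decitabine 1. Plagl1 was the 1 gene of the 9 called lower in YAP Tg than in control (log2 -0.55, SE 0.142, limma adjusted p = 0.00416), and the 1 called higher in Tet1 -/- YAP Tg than in YAP Tg (log2 0.67, adjusted p = 0.00128). It was not called in the other 3 comparisons (log2 0.12, -0.31 and -0.20, limma adjusted p = 0.548, 0.118 and 0.306). Group totals of 89 to 138 reads limit its precision.

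Cdkn1c and Grb10 both restrain growth. Cdkn1c (p57) is a maternally expressed inhibitor of cyclin-dependent kinases (chromosome 7, 143458339 to 143461050, minus strand). It was at 2.22, 1.65 and 1.84 normalised reads in control livers, 7.63, 7.32 and 8.28 in YAP Tg, 1.34, 2.18 and 1.49 in Tet1 -/- YAP Tg, and 2.21, 1.87 and 2.12 with decitabine. The YAP Tg libraries stood apart at about the same level, and the other 3 groups overlapped. The YAP Tg mean (7.74 ± 0.487) was 4.07 times the control mean (1.90 ± 0.293), with a log2 fold change of 1.78 (SE 0.154, limma adjusted p = 6.66e-07), and Tet1 -/- YAP Tg (1.67 ± 0.447) was lower than YAP Tg by a log2 of -1.94 (adjusted p = 3.6e-07). With decitabine (2.07 ± 0.177) Cdkn1c was not called different from untreated Tet1 -/- YAP Tg (log2 0.26, SE 0.161, adjusted p = 0.184) or from control (log2 0.10, adjusted p = 0.603), unlike H19 and Peg3; whether the responses differ between these genes was not tested. On a TPM scale for all 12 libraries, Cdkn1c was called higher with decitabine in both comparisons (log2 0.55 and 0.50, limma adjusted p = 0.00943 and 0.0137), but that scale also moved the median of all genes to 0.43 and 0.55.

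Of the 10 other listed genes of the Kcnq1 locus, in which Cdkn1c lies, 8 were tested. In YAP Tg against control 4 of them were called higher and none lower by limma, where 70.5% of all genes were called (36.1% higher). The 4 were Tspan32 (log2 1.23, a gene that passed the filter only through YAP Tg), Slc22a18 (0.51), Nap1l4 (0.22) and Cd81 (0.20). Of the 9 tested genes of the locus with Cdkn1c, 2 were called higher and 3 lower in Tet1 -/- YAP Tg than in YAP Tg. In that comparison 67.4% of all genes were called. Slc22a18 and Cd81 did not fall as Cdkn1c did, at means of 41.9 and 229 normalised reads in YAP Tg and 58.5 and 275 in Tet1 -/- YAP Tg. Kcnq1ot1, the paternal antisense RNA whose transcription silences the cluster in cis, was at 130 ± 6.28 normalised reads in control livers, 135 ± 4.25 in YAP Tg, 104 ± 6.71 in Tet1 -/- YAP Tg and 157 ± 11.9 with decitabine. It was not called between YAP Tg and control (log2 0.06, limma adjusted p = 0.388), and was lower in Tet1 -/- YAP Tg than in YAP Tg (log2 -0.38, adjusted p = 0.000137). Phlda2 and Ascl2 were below the filter.

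Grb10 is an adaptor protein that dampens insulin and IGF receptor signalling (chromosome 11, 11930499 to 12037420, minus strand). It was at 9.12, 9.83 and 6.88 normalised reads in control livers, 16.4, 17.9 and 16.9 in YAP Tg, 9.97, 11.1 and 8.80 in Tet1 -/- YAP Tg, and 11.2, 16.3 and 16.9 with decitabine. YAP Tg lay above controls and Tet1 -/- YAP Tg in every library, and controls and Tet1 -/- YAP Tg overlapped. Grb10 was called higher in YAP Tg than in control (log2 0.96, SE 0.126, limma adjusted p = 2.56e-05) and lower in Tet1 -/- YAP Tg than in YAP Tg (log2 -0.76, adjusted p = 0.000209). With decitabine it was higher than in untreated Tet1 -/- YAP Tg (log2 0.53, SE 0.169, adjusted p = 0.0152), a call lost without Tet1 -/- YAP Tg 3 (0.0648) or without decitabine 3 (0.0649), and higher than in control (log2 0.74, adjusted p = 0.00175). Its neighbours on chromosome 11 fell in YAP Tg: Ddc, which makes dopamine and serotonin from their precursors, from 98.1 ± 15.2 to 34.1 ± 1.07 normalised reads (log2 -1.50, limma adjusted p = 2.04e-08) and Cobl, an actin nucleator, from 23.3 ± 2.57 to 13.5 ± 1.10 (log2 -0.77, adjusted p = 1.99e-05).

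Mest (Peg1) is a paternally expressed gene of mesoderm, for a protein of the hydrolase fold (chromosome 6, 30733506 to 30748466, plus strand). It was at 7.01, 8.01 and 5.16 normalised reads in control livers, 5.29, 6.67 and 5.18 in YAP Tg, 5.86, 5.59 and 3.68 in Tet1 -/- YAP Tg, and 12.2, 17.3 and 8.88 with decitabine. The 3 groups without decitabine overlapped, and every decitabine library lay above all 9 others. Mest was not called among the groups without decitabine (log2 -0.21, -0.18 and -0.39, limma adjusted p = 0.34, 0.407 and 0.122) and was called higher with decitabine than in untreated Tet1 -/- YAP Tg (log2 1.24, SE 0.238, adjusted p = 0.0006) and than in control (log2 0.85, adjusted p = 0.00684). Copg2, its overlapping antisense neighbour, went from 33.1 ± 3.43 in controls to 52.0 ± 5.55 with decitabine (log2 0.64, limma adjusted p = 0.000127).

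Meg3 is a maternally expressed long noncoding RNA of the Dlk1-Meg3 locus on chromosome 12 (109540996 to 109571729, plus strand), abundant in brain and pituitary. Among the groups without decitabine, it differed more between libraries of 1 group than between group means. In controls it was at 7.31, 9.30 and 1.25 normalised reads (125, 209 and 21 reads), in YAP Tg at 4.25, 4.26 and 2.26 (118, 124 and 62 reads), and in Tet1 -/- YAP Tg at 8.0, 9.77 and 0.267 (179, 215 and 5 reads). Replicate 3 was the lowest of each of these groups, at 0.150, 0.531 and 0.0300 times the mean of the other 2 libraries. With decitabine Meg3 was at 0.0357, 0.0813 and 0.0415, from 1, 3 and 1 recovered reads, which are the smallest whole numbers that fit the deposited TPM and could be a whole multiple of these. The groups without decitabine overlapped and were not called different (log2 -0.37, 0.03 and -0.33, SE 0.87, limma adjusted p = 0.724, 0.975 and 0.79). With decitabine Meg3 was lower than in untreated Tet1 -/- YAP Tg (log2 -2.88, SE 0.829, limma adjusted p = 0.00906) and than in control (log2 -3.21, adjusted p = 0.00407), and every decitabine library lay below every other. The size of the difference from untreated livers depended on the setting: it was -4.08 without Tet1 -/- YAP Tg 3, -2.21 without Tet1 -/- YAP Tg 2 (limma adjusted p = 0.0486) and -6.88 by DESeq2 on recovered reads. Against control it was -3.98 without control 3 and -6.88 by DESeq2.

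**Figure D3:**
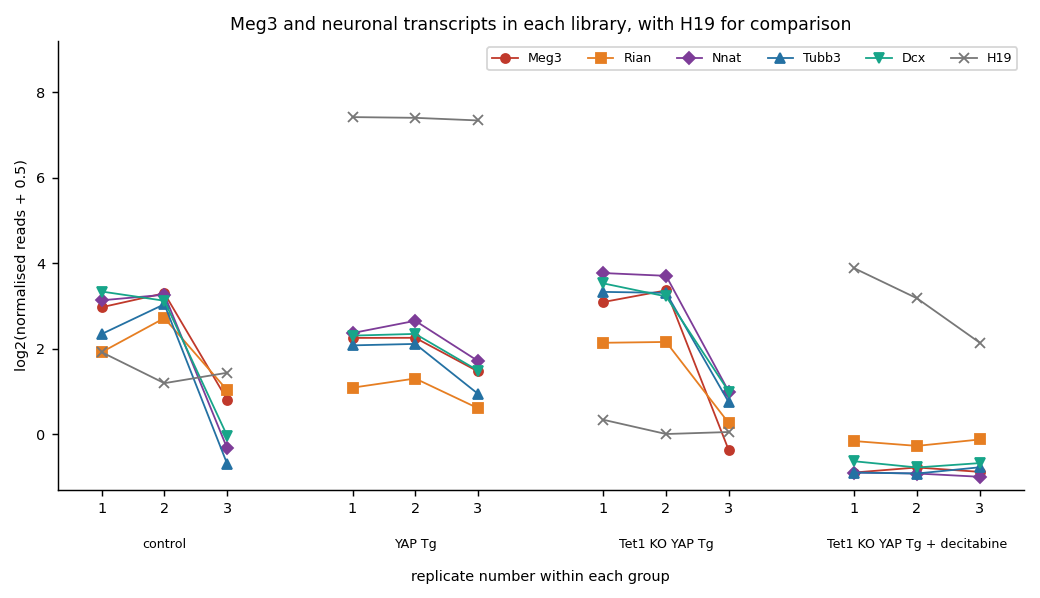
Level of Meg3, of Rian and Nnat (2 other imprinted genes), of the neuronal genes Tubb3 and Dcx and of H19 as log2(normalised reads + 0.5) in each library, by group and replicate number; lines join libraries of a group and have no order in time. Meg3, Rian, Nnat, Tubb3 and Dcx are each lowest in replicate 3 of the first 3 groups; with decitabine Meg3 and Nnat held 5 and 2 reads over the group and Rian 33, while H19 follows the group.

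The plot of Meg3 by library shows transcripts of nerve cells with the same pattern. Rian, the maternally expressed RNA downstream of Meg3, was at 3.27, 6.05 and 1.54 normalised reads in control livers, 1.62, 1.96 and 1.02 in YAP Tg, 3.89, 3.95 and 0.693 in Tet1 -/- YAP Tg, and 0.392, 0.325 and 0.415 with decitabine. Nnat (neuronatin), a paternally expressed gene on another chromosome, was at 8.24, 9.07 and 0.297 in control livers, 4.64, 5.77 and 2.77 in YAP Tg, 13.1, 12.5 and 1.49 in Tet1 -/- YAP Tg, and at 0.0357, 0.0271 and 0 with decitabine. Both had replicate 3 lowest in each group without decitabine. Tubb3, the neuronal beta tubulin, and Dcx were named after their values were seen. Tubb3 was at 4.56, 7.70 and 0.119 in control livers, 3.71, 3.81 and 1.42 in YAP Tg, 9.52, 9.36 and 1.17 in Tet1 -/- YAP Tg, and 0.0357, 0.0271 and 0.0830 with decitabine. The 5 genes whose deviations from their group means followed Meg3 most closely over 12 libraries were Dlx1 (r = 0.99), Scg3 (0.986), Slc35f1 (0.983), Dner (0.981) and Dlx6os1 (0.978), and over the log2 levels of 9 libraries they were Ncam1 (0.963), Ina (0.957), St8sia2 (0.955), Nyap1 and Dlx6os1 (both 0.953). Dlx1 is a homeobox factor of forebrain interneurons, Ncam1 a neural cell adhesion molecule and Ina a neuronal intermediate filament.

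A list of 18 neuron markers, written after these values were seen, summed to 58.9, 69.1 and 25.7 normalised reads in control livers, 35.4, 36.9 and 26.7 in YAP Tg, 71.1, 63.4 and 24.1 in Tet1 -/- YAP Tg, and 6.31, 8.26 and 12.2 with decitabine. Syt1 alone, which did not drop in replicate 3, made up 20.7 of the 25.7 in control 3. Of the 18 markers, 10 had reads in control 3 and 18 in the other controls, and 5 (Elavl3, Elavl4, Gap43, Snap25 and Nefl) had none in any decitabine library. With the log2 of this sum as a covariate, a fit added after seeing the data, Meg3 was called higher in YAP Tg than in control (log2 0.75, limma adjusted p = 0.0085) and lower in Tet1 -/- YAP Tg than in YAP Tg (log2 -1.12, adjusted p = 0.000703), so its direction turned with the setting. Syt1, a large part of the sum, was itself called lower in YAP Tg than in control. Its group means were 20.4, 8.17 and 12.4 normalised reads in control, YAP Tg and Tet1 -/- YAP Tg. The covariate thus differs between the groups, and the 2 calls of Meg3 cannot be told apart from that difference. With decitabine, 14 of 16 tested neuron markers were called lower than in untreated livers and 1 higher. Over all genes tested, 27.8% were called lower and 33.0% higher there. The marker that was higher, Rbfox3, had group means of 1.06, 2.37, 0.643 and 1.54 normalised reads in control, YAP Tg, Tet1 -/- YAP Tg and decitabine. The part of neuronal transcripts in the Meg3 values was otherwise not tested. The libraries also differed in Xist, the RNA of the inactive X chromosome, at 12.9, 15.3 and 0.119 normalised reads in control livers, 5.83, 0.137 and 0.182 in YAP Tg, 0.0894, 12.2 and 3.73 in Tet1 -/- YAP Tg, and 0.250, 0.217 and 0.166 with decitabine. Xist was named after its values were seen, as was the Y-linked gene Kdm5d, which had group means of 33.7 to 36.6 normalised reads, with SDs of at most 2.41.

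Dlk1, the paternally expressed membrane protein of the NOTCH ligand family at the other end of the locus (chromosome 12, 109452823 to 109463336, plus strand), held 2, 8 and 0 reads in control livers, 4, 3 and 1 in YAP Tg, 3, 4 and 0 in Tet1 -/- YAP Tg, and 0, 0 and 1 with decitabine. At this depth Dlk1 was too low to test, so its differences between groups were neither called nor excluded. Without decitabine, Dio3 passed the filter only through its YAP Tg libraries, so its difference there is built into its being tested. Dio3, the paternally expressed deiodinase at the far end of the domain, which inactivates thyroid hormone, was at 0.241 ± 0.106 normalised reads in control livers, 2.05 ± 0.103 in YAP Tg (log2 1.79), 0.0606 ± 0.105 in Tet1 -/- YAP Tg (log2 -2.20 against YAP Tg) and 2.02 ± 0.906 with decitabine (log2 2.12 against untreated, adjusted p = 3.85e-06).

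Other imprinted genes showed no common direction. Of 51 on the lists, 47 were in the table and 35 were tested, among them Snrpn and Snurf, which had identical values and share their reads. In YAP Tg against control 13 were called higher and 9 lower by limma, 62.9% of those tested, where 70.5% of all genes were called. Their median log2 fold change was 0.16. In Tet1 -/- YAP Tg against YAP Tg 12 were higher and 11 lower (65.7%), and in Tet1 -/- YAP Tg against control 7 were higher and 7 lower. With decitabine 16 were higher and 14 lower than in untreated Tet1 -/- YAP Tg (85.7%, against 60.8% of all genes). Against control 14 were higher and 12 lower with decitabine (74.3%, against 67.3%). Reads recovered for decitabine libraries can be too small by a whole factor, which would add to the lower calls of these 2 comparisons. Sgce, a paternally expressed sarcoglycan, rose in YAP Tg from 7.94 ± 0.95 to 36.3 ± 1.55 normalised reads (log2 2.13), with 5.99 ± 0.60 in Tet1 -/- YAP Tg and 19.2 ± 2.94 with decitabine. Slc38a4, an amino acid transporter of liver and placenta, fell from 1900 ± 251 to 809 ± 26.8 (log2 -1.22) and was at 1500 ± 62.1 and 568 ± 20.1 in the last 2 groups. Among the maternally expressed genes, Gatm, the first enzyme of creatine synthesis, rose from 15.9 ± 1.9 to 47.2 ± 1.42 (log2 1.54), with 14.9 ± 2.29 and 58.9 ± 3.33 in the last 2 groups.

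**Figure D4:**
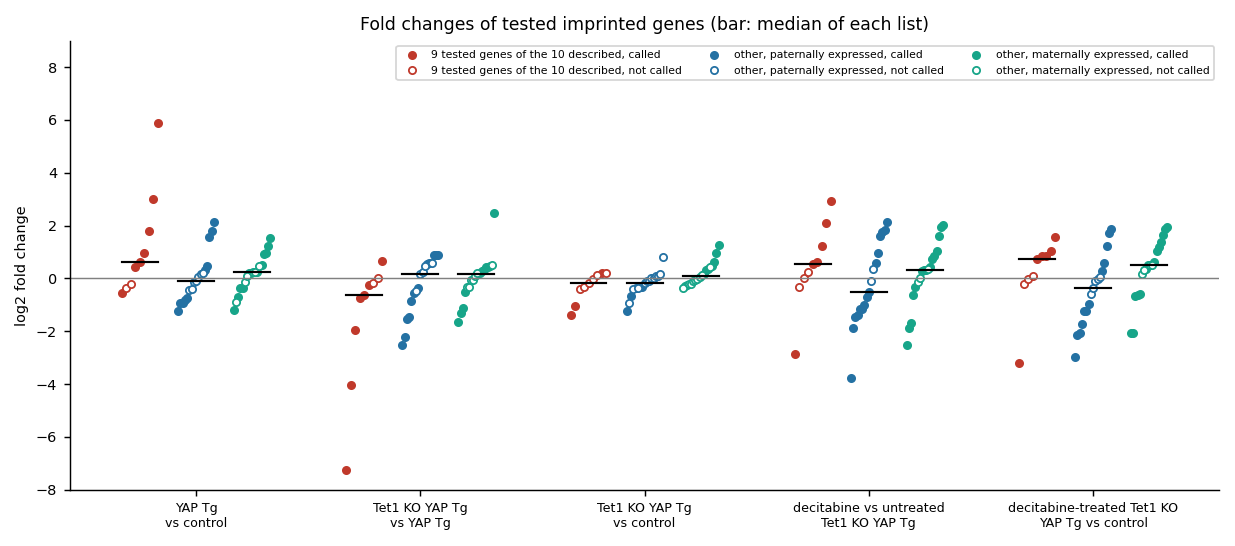
Log2 fold changes of the 9 tested genes described here (red) and of 35 other tested imprinted genes, split into paternally expressed (blue) and maternally expressed (green), in the 5 comparisons; filled circles were called and bars are medians. The medians of the 9 genes run from -0.64 to 0.74, and points of every list lie on both sides of 0.

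The plot of the lists shows rises and falls within each list. In a list of 16 genes described in mice as an imprinted gene network, which holds all 10 genes described here and is therefore no independent set, 15 were tested, with 8 higher and 4 lower in YAP Tg, and 4 higher and 8 lower in Tet1 -/- YAP Tg against YAP Tg.

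A list of genes that silence fetal genes in the mouse liver after birth, and of their targets, held 5 tested genes, of which 3 were called higher and 2 lower in YAP Tg than in control by limma. With decitabine against untreated, 2 were called higher and 1 lower, and Hmga2 and Zhx2 were not called. Over all genes tested, 70.5% and 60.8% were called in these 2 comparisons. Gpc3, a fetal heparan sulfate proteoglycan, had group means of 1.72, 597, 10.2 and 450 normalised reads in control, YAP Tg, Tet1 -/- YAP Tg and decitabine. Afp, the fetal serum protein, had 1.74, 21.8, 2.91 and 21.8. Zbtb20, a repressor of Afp in mouse liver, fell from 65.2 ± 4.85 to 30.5 ± 1.31 in YAP Tg (log2 -1.08, limma adjusted p = 7.22e-08) and was at 56.5 ± 4.12 in Tet1 -/- YAP Tg. Zhx2, which lowers H19, Afp and Gpc3 in mouse liver and is named after its values were seen, was at 16.4 ± 2.38, 10.5 ± 0.505, 17.7 ± 2.15 and 13.4 ± 7.79 (log2 -0.61 in YAP Tg against control, adjusted p = 0.000479). YAP Tg and decitabine-treated livers were not tested against each other.

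Of 18 tested genes of IGF signalling, 7 were called higher and 8 lower in YAP Tg than in control. In Tet1 -/- YAP Tg against YAP Tg, 7 were higher and 9 lower. Over all genes tested, 70.5% and 67.4% were called in these 2 comparisons. Stc2, an inhibitor of the protease that frees IGFs, passed the filter without decitabine only through YAP Tg, and went from 0.167 ± 0.0861 normalised reads to 12.8 ± 0.661 (log2 4.32), and was at 0.223 ± 0.205 in Tet1 -/- YAP Tg and 8.54 ± 1.73 with decitabine. Igf2bp3, a fetal RNA-binding protein of Igf2 and H19 transcripts, went from 4.09 ± 0.267 to 22.6 ± 1.56 (log2 2.33), 1.45 ± 0.257 and 11 ± 2.98. Igfbp2, an IGF carrier, fell from 417 ± 6.6 to 57.4 ± 1.14 (log2 -2.85) and did not return in Tet1 -/- YAP Tg, at 48.4 ± 2.51. Ghr, the growth hormone receptor, fell from 920 ± 77.3 to 144 ± 4.83 (log2 -2.67) and was at 666 ± 14.2 in Tet1 -/- YAP Tg.

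Markers of other liver cells differed between the groups, each list in its own way. Over all genes tested, 36.1% were called higher and 34.5% lower in YAP Tg than in control. In Tet1 -/- YAP Tg against YAP Tg, 33.4% were higher and 34.0% lower. Of 5 tested macrophage markers, 5 were higher in YAP Tg than in control and 5 lower in Tet1 -/- YAP Tg than in YAP Tg, and their summed level was 241 to 317 normalised reads in control livers, 1200 to 1220 in YAP Tg, 295 to 298 in Tet1 -/- YAP Tg and 1320 to 1410 with decitabine. Of 7 markers of bile duct and progenitor cells, 4 were higher in YAP Tg and 0 lower by limma, with sums of 51.5 to 63.7, 1690 to 1720, 314 to 332 and 882 to 2730, to which the secreted protein gene Spp1 contributed group means of 50.5, 1660, 314 and 1730. Of 10 stellate and fibroblast markers, 3 were higher and 5 lower in YAP Tg, with sums of 332 to 356, 207 to 217, 370 to 380 and 182 to 311. Sums of 10 endothelial markers were 484 to 509, 496 to 515, 481 to 484 and 436 to 662. Of 4 tested mesothelial markers, 4 were lower in YAP Tg than in control. Marker sums with decitabine could be too low, since recovered reads can be too small by a whole factor. None of these markers was at 0 in all libraries of a group, and their part in the differences of the imprinted genes was not tested.

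The authors' deposited table also gives fold changes, and for decitabine these follow the mixed units. Among 8691 genes with group means of at least 5 in the deposited values, 100% of the authors' log2 fold changes between decitabine-treated and untreated Tet1 -/- YAP Tg lay within 0.3 of the log2 ratio of TPM to normalised reads, and 23.4% lay within 0.3 of the values on the common scale. The sign was opposite for 32.4% of these genes. The median difference, the authors' deposited table minus the common scale, was 1.77 for 821 genes shorter than 1 kb and -1.35 for 1536 genes longer than 5 kb. Igf2r, one of the longest transcripts here, is at -1.13 in the authors' deposited table (false discovery rate 1.87e-05) and at 0.64 on the common scale. Grb10 is at -0.46 in the authors' deposited table and at 0.53 on the common scale, Peg3 at 0.92 and 2.10, and H19 at 3.53 and 2.94. For the 3 comparisons without decitabine, 99.9% to 100% of genes lay within 0.3. On a TPM scale for all 12 libraries, 75.4% of called genes were higher with decitabine than in untreated Tet1 -/- YAP Tg, against 54.3% on the scale used here, and 78% against 54.5% for decitabine against control.

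**Figure D5:**
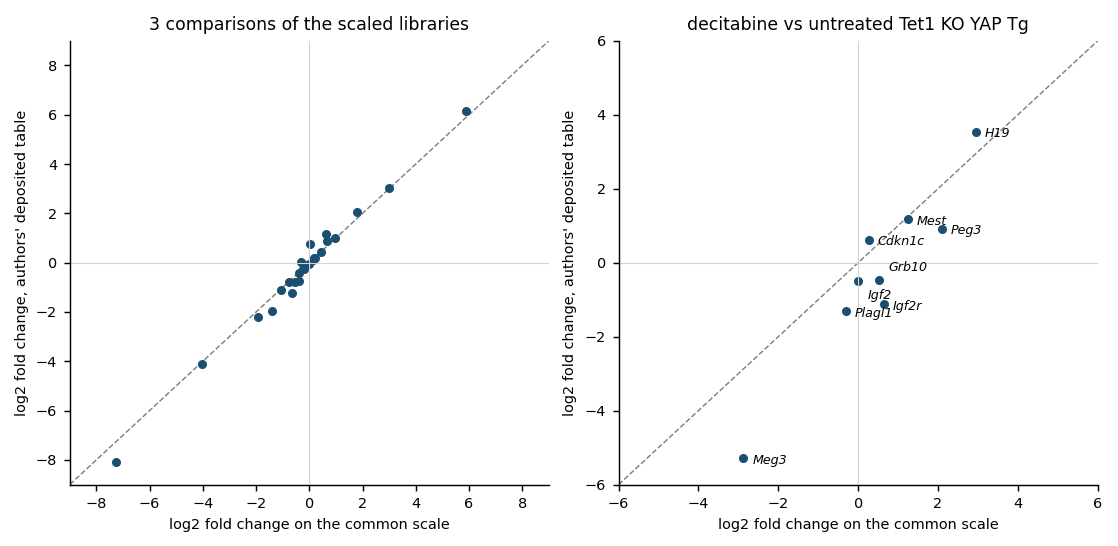
Log2 fold change in the authors' deposited table (vertical axis) against the value on the common scale (horizontal axis) for the 9 tested imprinted genes; the left panel holds the 3 comparisons without decitabine and the right panel decitabine-treated against untreated Tet1 -/- YAP Tg, with the dashed line for equal values. In the right panel Igf2r (-1.13 against 0.64) and Grb10 (-0.46 against 0.53) have opposite signs.

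The plot of deposited against common-scale fold changes shows points on the left nearer to the line than those on the right; on the horizontal axis the added 0.5 draws genes with few reads towards 0.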

How the data were processed

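Liver RNA of 12 libraries was analysed; the other 24 of the 36 samples of the series, of other assays, were not analysed here. Per the submitters' processing notes, reads were handled with TopHat2, featureCounts and edgeR on mm10, with no versions or options. Per the file headers and their values, the authors deposited 9 columns as a normalised signal, in which 100% of values were whole multiples of 1 read (tolerance 0.02 of a read), and 3 decitabine columns as TPM. The authors' deposited log2 fold changes and mean log2 levels, likelihood ratio scores and p-values with false discovery rates were used only where named. Reads and gene lengths were recovered from TPM for 17104 of 17105 genes; tested on simulated data, 92.6% of 13620 genes with a mean of 10 or more reads came back exactly and 7.36% too small by a whole factor, and 86.0% of 2286 genes with a mean of 1 to 10 reads came back exactly. All levels were brought to one scale with TMM factors.

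The main test was limma 3.58.1 in R 4.3.3 with an intensity trend on log2(value + 0.5), two-sided, on genes with 0.5 or more in 3 or more libraries; comparisons without decitabine used 9 libraries in one fit and those with it all 12. The plan allowed for count tests, but the values are not counts, so edgeR 4.0.16 and DESeq2 1.42.0 ran on recovered reads as alternatives. The SEs with decitabine average its wider spread with that of the other groups. Tested on simulated data for 200 changed genes, limma recovered 100% at log2 sizes of 1 and 2. This held for YAP Tg against control and for decitabine against untreated, with 11 and 9 false calls among 13063 and 13143 genes. In these livers 70.5% and 60.8% of genes were called in the same comparisons. Pairs of decitabine libraries had coefficients of variation of 0.185 to 0.314. The simulation changed far fewer genes, and its recovery holds for the simulated spread and levels only. It does not measure power or false calls in these livers. With 3 libraries against 3, an exact permutation test of a single gene cannot go below p = 0.1, so none was used. Symbols were matched to RefSeq (GRCm38.p6) for 17759 of 18591 rows. The genes and lists were chosen with earlier results of these data known. All 10 genes and locus neighbours are named, except for 1 result not reported here, and of other lists up to 4 called genes with the largest change, with exceptions said in place. Alternatives changed the pseudocount, the filter, the tool, the scaling, the groups fitted, the block and the libraries kept. Counting intervals (95%) of read ratios are not printed; they cover counting error only, since reads are not independent molecules.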

Additional observations from a re-analysis of the deposited data

How the results depend on the processing

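Across 25 alternative settings, 794 recomputed log2 fold changes of the 9 tested genes were compared with their reported values. In 756 the call or its absence held, and the direction held wherever the gene was called. These 756 include values without a call whose sign turned. The call was lost in 27 and gained in 9, and in 2 the direction turned with a call. Both of the last were Meg3 with the summed neuron markers as a covariate, a fit added after seeing the data. Meg3 was then at 0.75 in YAP Tg against control and -1.12 in Tet1 -/- YAP Tg against YAP Tg. Leaving out 1 library gave -1.14 to 0.10 and -0.64 to 1.24 for Meg3 in these comparisons, with no call. When near-identical libraries were added together, genes called fell to 2617 (from 9682) in YAP Tg against control, 1258 (9251) in Tet1 -/- YAP Tg against YAP Tg, 50 (5354) in Tet1 -/- YAP Tg against control, 3690 (8471) with decitabine against untreated and 6178 (9385) with decitabine against control, and of the 9 genes 3, 3, 0, 3 and 3 stayed called (from 7, 7, 3, 6 and 6). By the construction of that fit, YAP Tg and Tet1 -/- YAP Tg have 1 library each and are assumed to vary like the controls and decitabine libraries. The count of 0 is by limma, with 0 at an unadjusted p under 0.05, and edgeR and DESeq2 on all libraries called 3 each. H19, Peg3 and Cdkn1c kept both calls with YAP Tg under every setting run, their log2 fold changes against control ranging from 5.64 to 6.13, 2.87 to 3.15 and 1.59 to 2.04.

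Leaving out 1 library at a time, the 5 counts of genes called ranged from 8696 to 10292, 8201 to 8674, 4032 to 7488, 7456 to 9078 and 8413 to 9785, and those among the 9 genes from 6 to 7, 6 to 7, 2 to 4, 5 to 7 and 5 to 6. Calls lost this way are given in the text. Calls gained were Grb10 in Tet1 -/- YAP Tg against control without control 2, Mest there without control 3, and, with decitabine against untreated, Cdkn1c without Tet1 -/- YAP Tg 2 and Plagl1 without decitabine 2; the cause was not tested.

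With the replicate number as a block, 7, 7, 4, 6 and 6 of the 9 genes were called, and Mest was called lower in Tet1 -/- YAP Tg than in control (log2 -0.39, adjusted p = 0.0316). The number was not taken as pairing the libraries throughout, since only 4 of 15 same-numbered pairs had deviations correlated above 0.1 (range -0.197 to 0.466). The 4 were replicate 2 of YAP Tg against control (r = 0.13) and replicate 3 of every comparison without decitabine (0.256, 0.246 and 0.466). Pairs with decitabine were at -0.197 to -0.038. Replicate 3 libraries without decitabine thus shared part of their deviations, and the cause was not tested. DESeq2 on recovered reads lost Igf2 in YAP Tg against control (adjusted p = 0.0502). Depth limits Dlk1, Igf2, Plagl1 and Meg3 with decitabine most.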

Other observations

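Ligands, receptors and targets of the NOTCH pathway, the family to which Dlk1 and Dlk2 belong by structure, were mostly higher in YAP Tg livers, where Dlk1 held 8 reads over 3 libraries. Of 10 tested genes, 8 were called higher and 0 lower in YAP Tg than in control by limma, where 36.1% of all genes were called higher. In Tet1 -/- YAP Tg against YAP Tg, 8 were called lower and 0 higher, where 34.0% of all genes were called lower. With decitabine against untreated 7 were called higher and 0 lower, where 33.0% of all genes were called higher. Jag1, a ligand, was at 8.33 ± 1.29 normalised reads (SD, n = 3) in control livers, 62.4 ± 2.13 in YAP Tg, 7.77 ± 0.538 in Tet1 -/- YAP Tg and 53.7 ± 18.7 with decitabine. Dlk2, which passed the filter without decitabine only through YAP Tg, was at 0 in control livers, 3.00 ± 0.353 in YAP Tg, 0.131 ± 0.0711 in Tet1 -/- YAP Tg and 3.08 ± 3.12 with decitabine. It is among the 8 called higher in YAP Tg and the 8 called lower in Tet1 -/- YAP Tg, and these calls are built into its being tested. The target genes Hes1 and Hey1 were at 5.16 ± 1.18 and 0.419 ± 0.246 in controls and at 37.8 ± 0.407 and 2.44 ± 0.12 in YAP Tg.

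Of 14 tested genes that keep imprints or write and erase DNA methylation, 6 were called higher and 4 lower in YAP Tg than in control. In Tet1 -/- YAP Tg against YAP Tg, 2 were higher and 4 lower. Over all genes tested, 70.5% and 67.4% were called in these 2 comparisons. Zfp445, a zinc finger protein that keeps imprints, fell from 166 ± 7.15 normalised reads in controls to 73.5 ± 3.56 in YAP Tg (log2 -1.17, limma adjusted p = 2.04e-09), and was at 171 ± 3.08 in Tet1 -/- YAP Tg and 89.6 ± 9.2 with decitabine. Zfp57, the other such protein, was at 0.879 ± 0.61, 2.90 ± 0.459, 1.67 ± 0.581 and 1.81 ± 0.436 in the same order. Uhrf1, which guides Dnmt1 to newly copied DNA, was at 1.51 ± 0.918, 5.56 ± 0.872, 3.59 ± 0.439 and 12.6 ± 4.26, and Dnmt1 at 18.6 ± 2.14, 29.4 ± 0.629, 20.1 ± 0.476 and 42.6 ± 9.27. After decitabine, 6 of the 14 were called higher and 3 lower than in untreated Tet1 -/- YAP Tg, where 60.8% of all genes were called.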
